A study of Mus musculus with 64 samples.

Results

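The 4 mouse embryonic stem (ES) cell lines of the series were compared with its 12 individual eight-cell embryos. The libraries were taken by their stage label, ES or 8 cell, which gave 16 of the 64 samples. The ES libraries came from 2 male and 2 female lines, and the embryo libraries from 6 male and 6 female embryos, all labelled C57BL/6 and none carrying a genetic modification in the labels. The other 48 samples were fetal and adult livers and were used only to place gene groups that depend on the library protocol. The study asked when gene expression begins to differ between the sexes, so the comparison of stages made here was not its main question.

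The ES lines were derived from embryos of the same strain and kept in 2i medium, which holds an inhibitor of MEK (PD0325901) and an inhibitor of GSK3 (CHIR99021), with leukemia inhibitory factor (LIF). The outer trophectoderm was lysed during derivation, and the inner cell mass was plated. Females were mated without hormone treatment, embryos were not cultured, and each embryo, freed of its zona pellucida, gave 1 library. The sex of the embryos had been assigned by the authors from the expression of Xist and a Y-linked gene, and that of the lines by PCR. The embryos came from fewer litters than there were embryos. Which litter each came from was not given, nor the passage of each line, so p-values that treat embryos as independent may be too small. Each line was expanded from an inner cell mass, and each sex has 2 lines. The p-values measure the spread between these lines and embryos.

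The eight-cell embryo lies between activation of the embryonic genome and the first choice of lineage. Its cells still hold maternal products and express factors of the trophectoderm, the primitive endoderm and the pluripotent epiblast side by side. ES cells in 2i correspond most nearly to the naive epiblast of the later blastocyst, in which Pou5f1 (Oct4), Sox2 and Nanog act together at shared regulatory elements. MEK inhibition blocks signalling from fibroblast growth factor, GSK3 inhibition stabilizes beta-catenin, and LIF activates STAT3.

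Stage and library protocol cannot be told apart. All ES libraries were made from total RNA with a stranded kit, and all embryo libraries from oligo-dT primed cDNA amplified by PCR with an adapted single-cell protocol. Reads on genes numbered 9857929 to 10386931 in the ES libraries and 4659656 to 7725432 in the embryos. At an equal depth of 4659656 reads, 15146 ± 125 genes (SD, n = 4) had a read in the ES lines and 10281 ± 483 (SD, n = 12) in the embryos, with ranges of 15016 to 15269 and 9407 to 10983 (two-sided exact permutation test, p = 0.0011, the smallest it can give). At full depth, where the ES libraries were deeper, 771 genes had at least 10 reads in every ES line and none in any embryo. For 25 genes it was the other way. Spearman correlations of the libraries lay between 0.973 and 0.982 among ES lines, between 0.866 and 0.921 among embryos, and between 0.743 and 0.790 across the stages. Fewer cells with a transcript and less transcript per cell cannot be told apart in these bulk libraries.

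Of 12478 genes with enough reads to be tested, 6600 (52.9%) were called between the stages at an adjusted p under 0.05 and an absolute log2 (ES/8 cell) above 1 in edgeR's quasi-likelihood test. The calls comprised 3915 genes higher in ES (31.4%) and 2685 lower in ES (21.5%). These shares are the background against which each gene list is read. The median log2 (ES/8 cell) of all genes was 0.44 and became 0.79 when DESeq2's size factors replaced TMM scaling, so a value within that shift of 0 has no firm direction. The 4 ES libraries lay wholly above or below all 12 embryos for 5895 genes (47.2%), of which 3790 were higher in ES and 2105 lower. Each statement below that a gene did not overlap is read against that share.

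**Figure D1:**
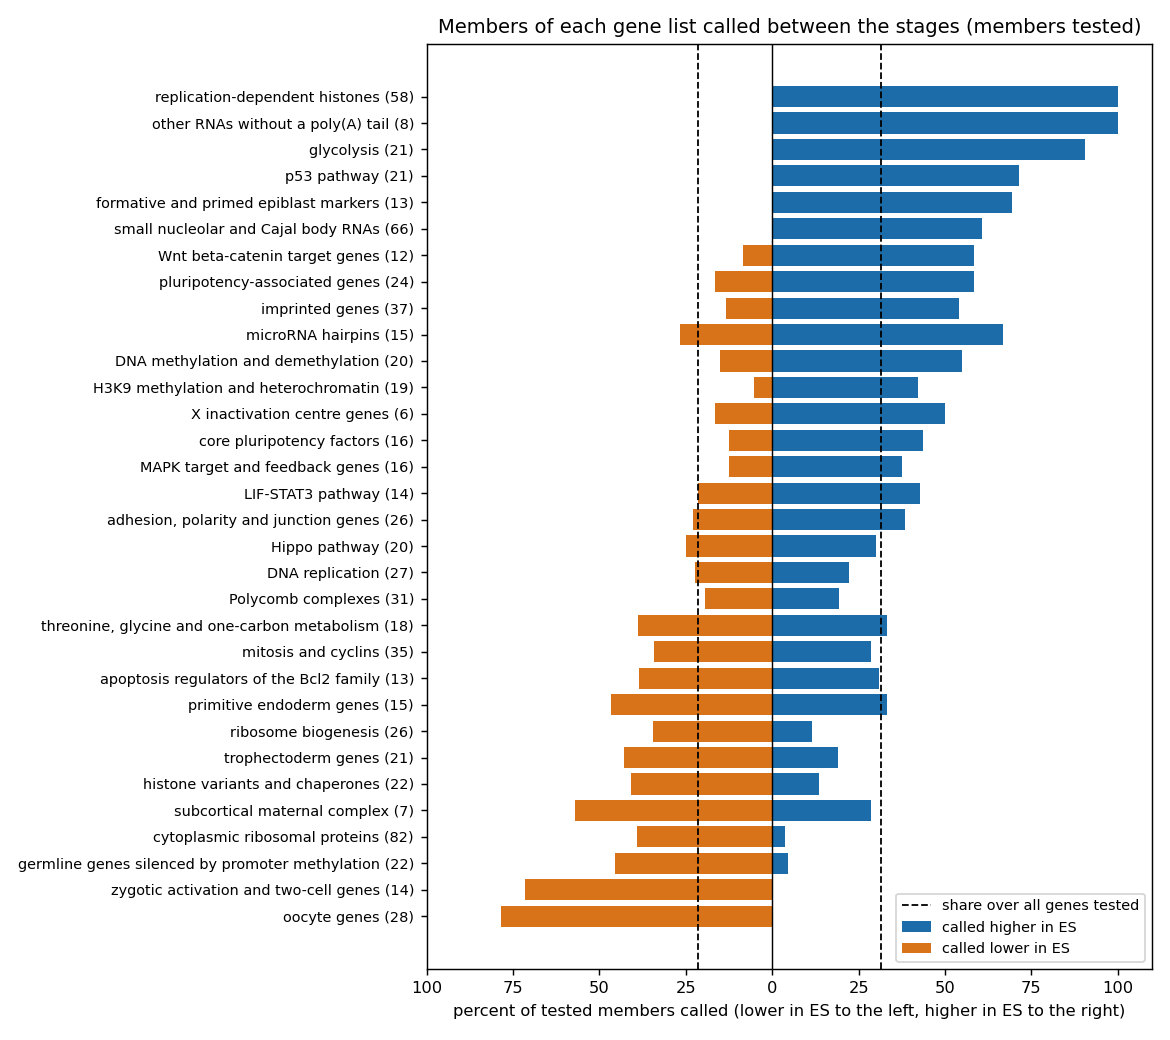
Share of the tested members of each gene list called higher in ES (right) or lower in ES (left), in percent, with the number tested in brackets and dashed lines at 31.4% and 21.5%, the shares over all genes. Oocyte and two-cell genes are called lower only, glycolysis and p53 pathway genes higher only.

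The defining pluripotency markers were present in the ES lines, while in the embryos only Pou5f1 was abundant. Levels are given as CPM, reads scaled to a common library total after TMM scaling, with the ES lines always in the order male 1, male 2, female 3 and female 4, and the embryos by their lowest, median and highest value. Nanog, a homeodomain factor of the naive state, was at 392, 413, 455 and 456 CPM in the ES lines and at 2.55, 7.5 and 22.6 in the embryos. The stages did not overlap, and the log2 (ES/8 cell) was 5.67 ± 0.38 (SE; adjusted p = 1.7e-09). Sox2, the partner of Oct4 on DNA, was at 307, 296, 368 and 348 CPM in the ES lines and had no read in 9 of the 12 embryos, whose highest value was 9.77 CPM. The log2 difference was 8.65 ± 0.93 (adjusted p = 6e-07), again without overlap.

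Pou5f1 differed least of the markers. It was at 636, 708, 759 and 744 CPM in the ES lines and at 102, 322 and 736 CPM in the embryos, so the highest embryo lay within the range of the lines. Its log2 difference of 1.07 ± 0.38 (adjusted p = 0.022) stood close to the threshold of 1. The call was lost without male embryo 1 (0.99), without female embryo 7 (0.96), without female ES line 3 (adjusted p = 0.051) and in the males alone (0.83, adjusted p = 0.27).

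The proximal promoters of Nanog and Sox2 are shown because both genes differed far more than Pou5f1, whose product binds the octamer motif. Each window runs from 250 bases before the RefSeq transcription start to 50 after it (GRCm38.p6), and the capitals mark the first 7 letters of that motif, ATGCAAA, or its reverse complement TTTGCAT.
Nanog, chr6:122707239-122707538, plus strand: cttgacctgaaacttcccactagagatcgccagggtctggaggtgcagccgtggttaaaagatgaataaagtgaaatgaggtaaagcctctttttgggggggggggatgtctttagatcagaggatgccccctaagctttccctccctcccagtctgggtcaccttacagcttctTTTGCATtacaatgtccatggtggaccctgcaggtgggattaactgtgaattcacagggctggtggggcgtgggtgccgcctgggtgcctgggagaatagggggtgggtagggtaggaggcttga
Sox2, chr3:34649745-34650044, plus strand: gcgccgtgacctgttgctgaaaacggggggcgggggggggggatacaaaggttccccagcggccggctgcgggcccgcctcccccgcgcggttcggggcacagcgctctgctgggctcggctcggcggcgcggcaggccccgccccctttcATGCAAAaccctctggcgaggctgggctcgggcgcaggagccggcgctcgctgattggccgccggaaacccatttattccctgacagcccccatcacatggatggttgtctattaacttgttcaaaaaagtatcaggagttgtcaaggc
The marked bases begin at -75 from the start of Nanog and at -99 from that of Sox2. Of the 16 core pluripotency factors, 12 had a window, and 3 of those (Nanog, Sox2 and Zfp42) held the letters on either strand. Over the first window of each of 27025 genes the share was 4.59%, and over all 32851 RefSeq windows of the same length it was 4.63%. Zfp42 was not called between the stages, and the windows of Pou5f1, Esrrb, Tfcp2l1 and Nr0b1, all called higher in ES, did not hold the letters. Such a match describes the sequence and does not show binding.

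Among the 16 core pluripotency factors, 7 were called higher in ES and 2 lower, and 7 were not called. The median log2 of the list was 1.13. Besides the 3 markers, the higher members were Nr0b1, Tfcp2l1, Prdm14 and Esrrb. Tfcp2l1, a target of both LIF-STAT3 and Wnt signalling, was at 1117, 1733, 1541 and 1483 CPM in the ES lines and at 30.8, 146 and 340 in the embryos. All lines lay above all embryos, with a log2 difference of 3.21 ± 0.35 (adjusted p = 7.2e-07). Nr0b1 (Dax1), an X-linked nuclear receptor, was at 102, 109, 148 and 160 CPM in the lines and had no read in any embryo, so it was at least 2960-fold higher in ES against the floor of 3 reads over the 12 embryos. Prdm14, a repressor of fibroblast growth factor signalling and of DNA methylation genes, was at 61.9, 72.3, 120 and 126 CPM in the lines and at 0, 3.89 and 16.8 in the embryos (log2 3.83 ± 0.95, adjusted p = 0.0023). Esrrb, an orphan nuclear receptor, was at 372, 459, 399 and 396 CPM against 47.4, 180 and 273 (log2 1.19 ± 0.25, adjusted p = 0.00065).

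None of the listed Krüppel-like factors, Klf2, Klf4 and Klf5, was called higher in ES. Klf5 was at 31.3, 44.6, 42.3 and 42.6 CPM in the lines and at 53.2, 139 and 282 in the embryos, and fell in ES with a log2 of -1.82 ± 0.41 (adjusted p = 0.001). Tbx3, a T-box factor downstream of LIF, was at 66.6, 115, 115 and 110 CPM against 93.7, 271 and 377, with a log2 of -1.38 ± 0.28 (adjusted p = 0.00052), a call lost in the males alone (adjusted p = 0.051). The lines overlapped the embryos for Tbx3 but not for Klf5. Klf2, Klf4, Zfp42 (Rex1) and Nr5a2 had log2 differences of -0.05 ± 0.25, 0.12 ± 0.26, -0.01 ± 0.29 and -0.13 ± 0.21, with embryos on both sides of the lines. Klf2 had a mean of 73.3 CPM in ES and 75.8 in the embryos, and Zfp42 of 136 and 138.

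**Figure D2:**
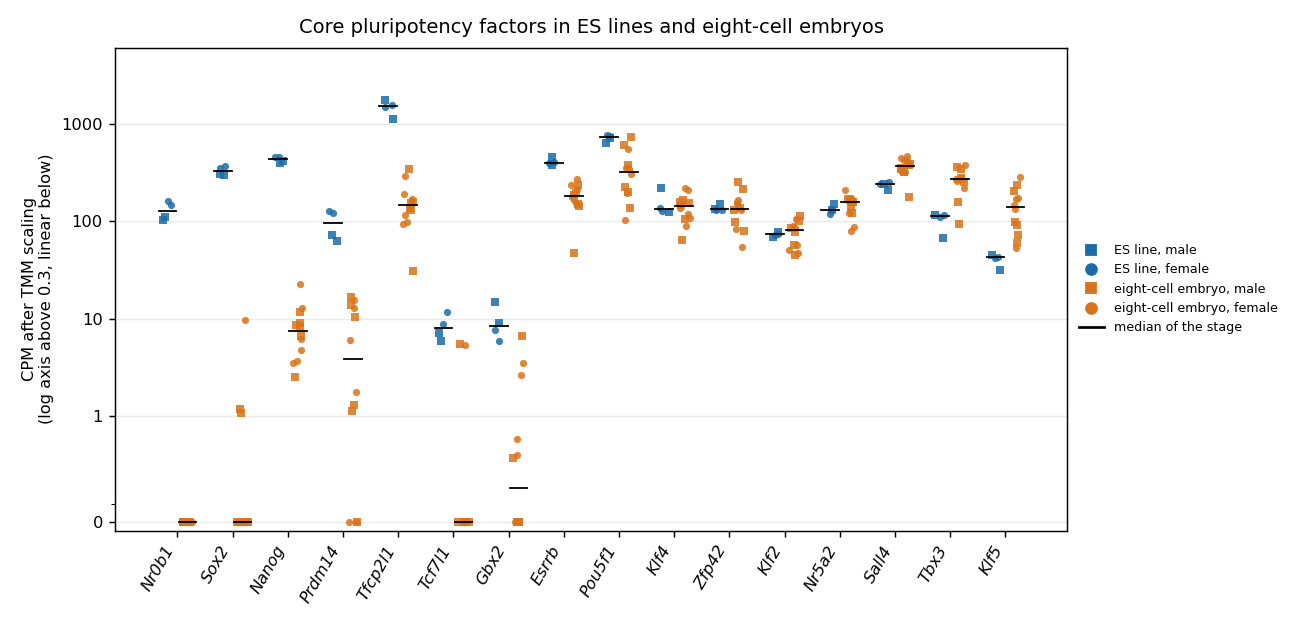
CPM of the 16 core pluripotency factors in each library (log axis above 0.3, linear below), ordered by log2 (ES/8 cell), for the 4 ES lines (blue) and the 12 embryos (orange), with squares for males, circles for females and a line at the median of each stage. Nr0b1, Sox2 and Nanog separate the stages, Klf4, Zfp42 and Klf2 do not, and Klf5 lies higher in all embryos.

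Of 24 further genes associated with pluripotency, 14 were called higher in ES and 4 lower. Fgf4, the growth factor that Oct4 and Sox2 control, was at 339, 381, 372 and 344 CPM in the ES lines and at 0.194, 9.6 and 49.4 in the embryos, with a log2 of 4.88 ± 0.66 (adjusted p = 7.4e-06). Spp1 (osteopontin), a secreted matrix protein, was at 513, 666, 623 and 587 CPM in the lines and had no read in any embryo, which puts it at least 13627-fold higher. The dioxygenases Tet1 and Tet2, which oxidize 5-methylcytosine, were higher by log2 values of 2.62 ± 0.39 and 3.16 ± 0.57.

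The 4 members that fell in ES were among the more abundant genes of the embryo. Fbxo15, an F-box protein used as an ES cell reporter, was at 224, 243, 277 and 246 CPM in the lines and at 4016, 5834 and 8563 in the embryos (log2 -4.58 ± 0.21, adjusted p = 2.1e-11). Sox15, a factor related to Sox2, was at 17.1, 9.96, 10.3 and 9.92 CPM against 328, 519 and 851 (log2 -5.57 ± 0.35). Its relative Sox2 had the opposite difference. Dppa2 and Dppa4, which form a chromatin complex that primes early embryonic genes, were lower by -3.55 ± 0.25 and -2.72 ± 0.15. The stages did not overlap for any of the 4, nor for 47.2% of all genes tested.

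Of 14 markers of the formative and primed epiblast 13 were tested, and 9 of them were called higher in ES and none lower, at a median log2 of 7.58. The Nodal pathway led them. Nodal, the ligand, was at 91, 101, 111 and 109 CPM in the ES lines, and its feedback inhibitor Lefty2 at 400, 153, 653 and 469 CPM, with no read for either in any embryo. Against the floor Nodal was at least 2349-fold higher and Lefty2 at least 9557-fold. Lefty1 was at 63.8, 21.5, 120 and 87.5 CPM in the lines and had no read in 7 embryos, whose highest value was 4.12 CPM. Foxd3, Wnt3, Sall2 and Fst were also called higher, as was T (brachyury), at 2.46 to 3.14 CPM in the lines with no read in any embryo. Fgf5 was at 0.386 to 0.679 CPM in the lines and was not tested, and Otx2 and Pou3f1 had means of 2.07 and 1.45 CPM and were not called.

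Components and targets of the pathways acted on by the medium were then examined. In the LIF-STAT3 list of 14 genes, 6 were called higher in ES (42.9%) and 3 lower (21.4%), against 31.4% and 21.5% of all genes. Lifr, the LIF receptor, was at 133, 163, 128 and 126 CPM in the ES lines and had no read in any embryo, and its co-receptor Il6st (gp130) was at 164, 135, 189 and 179 CPM and had no read in 7 embryos, with a highest embryo of 8.18 CPM. The receptor chains therefore did not overlap between the stages. Stat3 itself was at 120, 119, 86.8 and 77.3 CPM against 0.927, 27.2 and 49.1 (log2 2.11 ± 0.52, adjusted p = 0.002). The inhibitors of cytokine signalling divided. Socs2 was higher in ES (2.68 ± 1.07, adjusted p = 0.039), and Socs3 was lower (-2.43 ± 0.64, adjusted p = 0.0037), though the latter call was lost in the males alone. Cish, an inhibitor induced by STAT5, was at 0.849, 1.1, 0.667 and 0.763 CPM in the lines and at 62.3, 132 and 225 in the embryos (log2 -7.26 ± 0.36, adjusted p = 5.5e-11).

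Genes that respond to MAPK signalling were not lower as a group in the lines kept under MEK inhibition. Of 16 tested, 6 were called higher in ES and 2 lower, against 31.4% and 21.5% of all genes. Etv5, a factor of the PEA3 family, was at 459, 370, 389 and 413 CPM in the ES lines and at 7.65, 40.1 and 60.1 in the embryos (log2 3.45 ± 0.27, adjusted p = 1.4e-08). The feedback genes Dusp6 and Spry2 were at means of 8.86 and 66.7 CPM in ES against 1.5 and 72 in the embryos and were not called. Myc fell, at 3.47, 3.69, 5 and 4.75 CPM in the lines and 20.2, 96.9 and 223 in the embryos (log2 -4.47 ± 0.60, adjusted p = 7.4e-06). Its relative Mycn ran the other way, at 153, 76.7, 108 and 105 CPM in the lines and with no read in 8 embryos, and neither gene overlapped between the stages.

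Targets of Wnt and beta-catenin were called higher in ES for 7 of 12 tested, and 1 (Myc) was lower. Axin2, the feedback inhibitor of the pathway, was at 64, 47.5, 39.2 and 41.9 CPM in the ES lines, with no read in 8 embryos and a highest embryo of 4.33 (log2 8.00 ± 1.23, adjusted p = 3.2e-05). Notum, a secreted Wnt deacylase, was at 186, 89.5, 127 and 128 CPM against 0, 0.632 and 6.91 (log2 6.45 ± 0.95). Cdx1 was at 4.25, 18.7, 8.67 and 14.6 CPM with no read in any embryo. Lef1, Nkd1, Lgr5, Dkk1, Bmp4 and Sox17 did not pass the filter on low counts.

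Of 40 listed oocyte genes 28 were tested, 22 were called lower in ES and none higher, and the median log2 was -6.44, or -5.72 when 8 genes with no read in the ES lines were set at their bounds. Gdf9, an oocyte growth factor, was at 0.463, 0.235, 0.0834 and 0.424 CPM in the lines and at 16.1, 30.3 and 55.6 in the embryos (log2 -6.74 ± 0.60, adjusted p = 5.1e-08). Nlrp14 was at 0.154, 0.157, 0.417 and 0.339 CPM against 13.8, 25.3 and 42. The zona pellucida gene Zp3 remained measurable in the lines, at 16.8, 5.02, 13.1 and 9.67 CPM against 32.1, 63.9 and 89.8 (log2 -2.41 ± 0.36). Omt2b had no read in the ES lines and 5.46, 8.04 and 21.5 CPM in the embryos, at least 180-fold higher in the embryos. Levels in the embryos were low for many of these genes, and the count fell to 7 of 8 tested when a mean of 10 CPM in a stage was required, to 9 in the males alone and to 11 in the females alone.

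The subcortical maternal complex, which the egg needs for its first divisions, was divided. Nlrp5 (Mater), Tle6, Padi6 and 2410004A20Rik were called lower in ES, and Ooep and Nlrp4f higher, of 7 tested. Padi6 was at 0.0772, 0.235, 0.667 and 0.763 CPM in the lines and at 37.5, 59.8 and 137 in the embryos (log2 -7.32 ± 0.56, adjusted p = 8.7e-09). Ooep was at 50.1, 55.1, 142 and 120 CPM in the lines and at 0, 3.78 and 10.9 in the embryos (log2 4.47 ± 0.85, adjusted p = 0.00026). Neither gene overlapped between the stages, nor did 47.2% of all genes tested. The call for Nlrp4f was lost in each sex alone.

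Of 28 listed genes that rise at activation of the embryonic genome, 14 were tested, and 10 were called lower in ES and none higher. The others, Zscan4f, Tcstv3, Zfp54 and Gabarapl1, were not called, and for Gabarapl1 the log2 was 2.59 ± 1.20. Sp110, a nuclear body protein, was at 0.0772, 0.157, 0.333 and 0.424 CPM in the ES lines and at 713, 1307 and 1487 in the embryos, with a log2 of -12.16 ± 0.42 (adjusted p = 7.5e-13). Obox6, a homeobox gene of the Obox family, was at 22.8, 7.38, 37.3 and 44.7 CPM against 876, 1740 and 2580 (log2 -6.02 ± 0.41). Pramel7, a regulator of ground-state pluripotency, was at 2.08, 1.57, 6.84 and 13.6 CPM against 473, 754 and 1309 (log2 -7.30 ± 0.49). None of the 3 overlapped between the stages, nor did 47.2% of all genes tested. The transient two-cell genes of the Zscan4 cluster were near 0 in both, with Zscan4c at 0.154 to 0.763 CPM in the ES lines and no read in 11 embryos. The Obox, Pramel, Oog, Omt2 and Tdpoz families hold near-identical copies, so counts of single members are uncertain.

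Of 21 trophectoderm genes tested, 9 were called lower in ES and 4 higher, at a median log2 of -1.20. With voom 9 were lower and 7 higher and the median was 0.30, and in the females alone 5 were lower and 3 higher. Hand1, a factor of the trophoblast, had no read in either male line, was at 0.0834 and 0.17 CPM in the female lines, and at 71.9, 150 and 201 in the embryos (log2 -10.80 ± 0.57, adjusted p = 1.2e-10). Tead4, the DNA-binding partner of YAP in this lineage, was at 21.4, 38.4, 40.9 and 36.4 CPM against 241, 301 and 496 (log2 -3.27 ± 0.25), and Tfap2c at 97.4, 82.1, 72.7 and 66.3 against 188, 335 and 405 (log2 -1.96 ± 0.23). All 3 were without overlap. Cdx2, the factor that defines the lineage later, was low in both stages, at 0.54 to 3.39 CPM in the lines and up to 9.14 in the embryos, and was not called. Fabp3, a fatty acid binding protein, ran against the list at 103, 145, 205 and 201 CPM in ES and 3.14, 20.1 and 73.1 in the embryos.

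Of 15 primitive endoderm genes tested, 7 were called lower in ES and 5 higher. The lower ones were the transcription factors Gata6 and Gata4, the adaptor Dab2, Cubn, Amn, P4ha2 and the receptor Fgfr2, and the higher ones the basement membrane and matrix genes Lama1, Lamb1, Lamc1, Sparc and Nid1. The basement membrane collagens Col4a1 and Col4a2 were not called (log2 1.29 ± 0.82 and -0.66 ± 1.51). Gata6 was at 0.0772, 0.392, 0 and 0.0848 CPM in the lines and at 272, 670 and 851 in the embryos (log2 -11.98 ± 0.53, adjusted p = 1.5e-11). Gata4 was at 1.7, 3.22, 1.25 and 2.04 CPM against 37.9, 96.7 and 166 (log2 -5.59 ± 0.45). Sparc, a matrix glycoprotein, was at 452, 393, 459 and 409 CPM in the lines, with no read in 9 embryos and a highest embryo of 1.78 (log2 10.97 ± 0.58, adjusted p = 1.2e-10). The median log2 of the list, -0.66, was 1.60 with DESeq2, which tested 20 genes, 1.35 without the expression filter and 0.79 with voom.

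**Figure D3:**
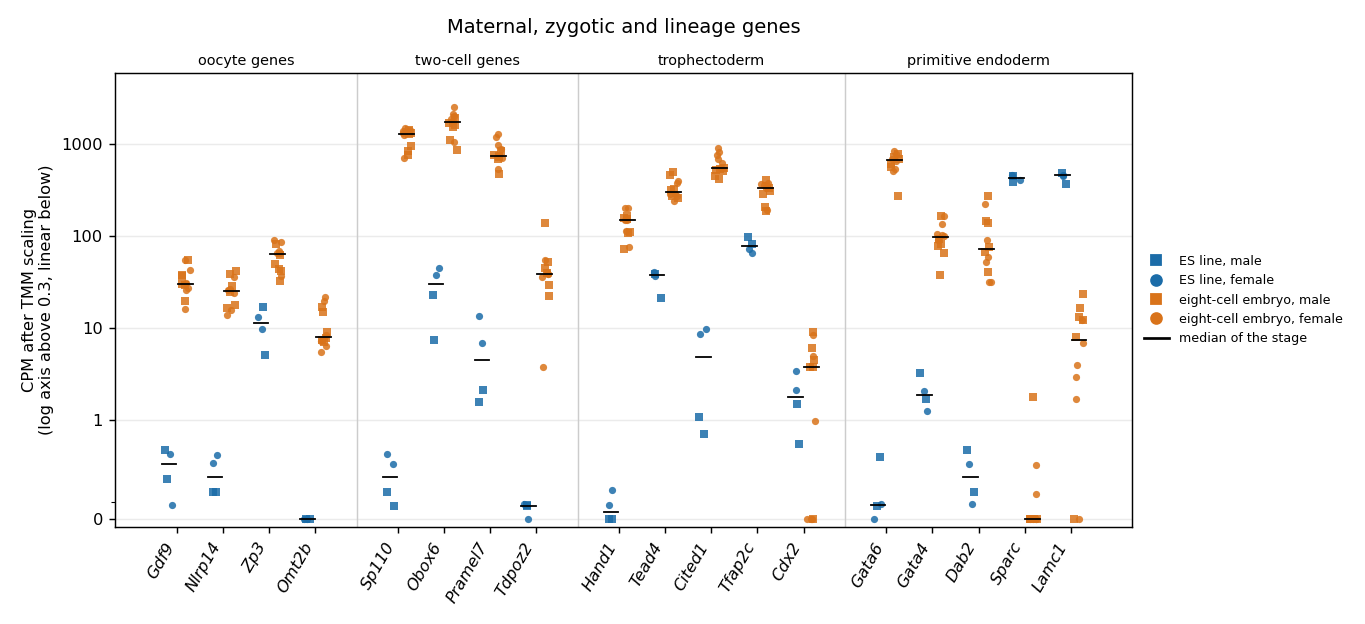
CPM of oocyte, two-cell, trophectoderm and primitive endoderm genes in each ES line (blue) and embryo (orange), on a log axis above 0.3 CPM, with squares for males, circles for females and a line at the median of each stage. Sp110, Hand1 and Gata6 are near 0 in all ES lines and between 71.9 and 1487 CPM in all embryos, whereas Sparc and Lamc1 are higher in all ES lines.

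The Hippo pathway, which reads cell position and restrains YAP, had 6 of 20 members called higher in ES and 5 lower, close to the background. Its calls divided among paralogs. Amot, an X-linked scaffold, was at 2.93, 2.28, 3.58 and 4.5 CPM in the lines and at 12.9, 46.4 and 98.6 in the embryos (log2 -3.80 ± 0.51), and Amotl1 was at 35.3, 34.4, 69.5 and 79.8 against 0, 0 and 7.34 (log2 5.53 ± 1.30). Tead2 was at 104, 114, 104 and 110 CPM against 0, 11.1 and 30.8, opposite to Tead4.

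In the list for adhesion and polarity 10 of 26 were higher in ES (38.5%) and 6 lower (23.1%). These shares were close to the background of 31.4% and 21.5%. Cdh1 (E-cadherin) was at 385, 382, 369 and 302 CPM in ES against 68.5, 144 and 195, and its partner Ctnnb1 at 737, 806, 866 and 887 against 194, 275 and 366. Ezr (ezrin), which links actin to the cell membrane, was at 314, 332, 237 and 230 CPM against 0, 0.85 and 23.1. Tight junction genes ran the other way, with Cldn7 at 3.47, 1.73, 1.33 and 0.848 CPM in the lines and 77.1, 205 and 353 in the embryos (log2 -6.89 ± 0.51, adjusted p = 5.8e-09), and Cgn and Ocln lower by -3.48 ± 0.39 and -3.14 ± 0.56. None of these genes overlapped between the stages, nor did 47.2% of all genes tested.

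The machinery that copies DNA methylation was much higher in the ES lines. Of 20 genes for DNA methylation and demethylation tested, 11 were called higher in ES and 3 lower, at a median log2 of 1.61. Dnmt1, the maintenance methyltransferase, was at 415, 420, 432 and 416 CPM in the lines and at 6.12, 38.4 and 63.7 in the embryos (log2 3.50 ± 0.30, adjusted p = 3.9e-08). Uhrf1, which brings Dnmt1 to newly made DNA, was at 529, 619, 578 and 595 CPM against 1.13, 11.9 and 23.8 (log2 5.57 ± 0.39). Zfp57, the zinc finger protein that guards methylation at imprints, was at 399, 467, 363 and 369 CPM against 0.147, 1.04 and 2.55 (log2 8.54 ± 0.39, adjusted p = 2.2e-11). The lines lay above every embryo for all 3.

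The de novo enzymes and Dppa3 did not follow. Dnmt3a was at 39.3, 14.8, 34.2 and 35.5 CPM in ES and 17.1, 91.7 and 162 in the embryos (log2 -1.58 ± 0.38, adjusted p = 0.0019), a call lost in the males alone and when the trend with transcript length was removed (-0.77, adjusted p = 0.077). Dnmt3b and Dnmt3l were not called, at log2 0.62 ± 0.27 and -0.02 ± 0.36. Dppa3 (Stella), a maternal protein that protects against demethylation in the zygote, was at 112, 39.2, 42.1 and 37.2 CPM in the lines and at 1880, 2714 and 4104 in the embryos (log2 -5.61 ± 0.34, adjusted p = 5.5e-10).

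Among 19 genes for H3K9 methylation, 8 were called higher in ES and 1 lower. The X-linked remodeller Atrx was at 607, 640, 1135 and 1095 CPM in the lines and 70.4, 114 and 226 in the embryos (log2 2.74 ± 0.16), and the demethylase Kdm4a at 103, 108, 101 and 102 against 0, 0.878 and 8.09 (log2 6.27 ± 0.73). Suv39h1 fell (-2.20 ± 0.44). Of 31 Polycomb genes, 6 were higher (19.4%) and 6 lower (19.4%), against 31.4% and 21.5% of all genes. Ezh2, the H3K27 methyltransferase, was at 112, 133, 106 and 108 CPM in the lines against 137, 336 and 445 (log2 -1.52 ± 0.25, adjusted p = 5.5e-05), and Pcgf5 at 7.03, 5.41, 7.67 and 6.62 against 113, 179 and 299 (log2 -4.75 ± 0.27). Its paralog Pcgf2 was higher in ES, at 21.2, 17.5, 14.8 and 16.2 CPM with no read in 11 embryos.

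Histone variants and histone chaperones were lower in ES for 9 of 22, among them Npm1, Npm2 and Slbp, which are not histones, and higher for 3 (H2afy, H2afy2 and Npm3). H3f3a and H3f3b, both encoding H3.3, had log2 values of -1.98 ± 0.18 and -1.59 ± 0.20, and H2afz -1.09 ± 0.17, whereas macroH2A (H2afy) was at 172, 208, 161 and 163 CPM in the lines and 13.4, 36.7 and 69.9 in the embryos (log2 2.29 ± 0.30). With DESeq2 6 of 23 tested were higher and 6 lower. The germline genes that promoter methylation silences in somatic cells were lower in ES for 10 of 22 and higher for 1 (Smc1b), whose call was lost in the males alone (log2 1.24) and without sex as a covariate (2.76). Asz1, which acts in the piRNA pathway, was at 0.309, 0.235, 0.0834 and 0.509 CPM against 8.89, 25.4 and 101 (log2 -6.95 ± 0.90), and the meiotic gene Sycp3 at 2.01, 3.3, 3.83 and 2.46 against 12.2, 22.8 and 46.5 (log2 -3.03 ± 0.49). In each sex alone 6 of the list were lower.

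Imprinted genes were called higher in ES for 20 of 37 tested and lower for 5, at a median log2 of 2.98. Peg3, a paternally expressed zinc finger gene, was at 210, 252, 103 and 146 CPM in the lines, with no read in 10 embryos and a highest embryo of 2.14 (log2 9.58 ± 0.77, adjusted p = 1.6e-08). The maternally expressed RNA Rian was at 218, 342, 135 and 116 CPM and had no read in any embryo, at least 4627-fold higher in ES. Meg3, from the same locus, was at 76.4, 90.9, 42.7 and 33.6 CPM with no read in 10 embryos, so for each of the 3 the male lines lay above the female lines. H13 and Gnas were called lower, at log2 -1.37 ± 0.25 and -1.20 ± 0.27. The call was lost for H13 in the females alone (adjusted p = 0.063) and with the length trend removed (-0.73), and for Gnas in the males alone (-0.89) and with DESeq2 or its size factors (-0.85). Several of these loci hold overlapping or antisense transcripts (Copg2 and Mest, Nespas and Gnas), and the embryo protocol does not keep strand, so their reads cannot be told apart.

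**Figure D4:**
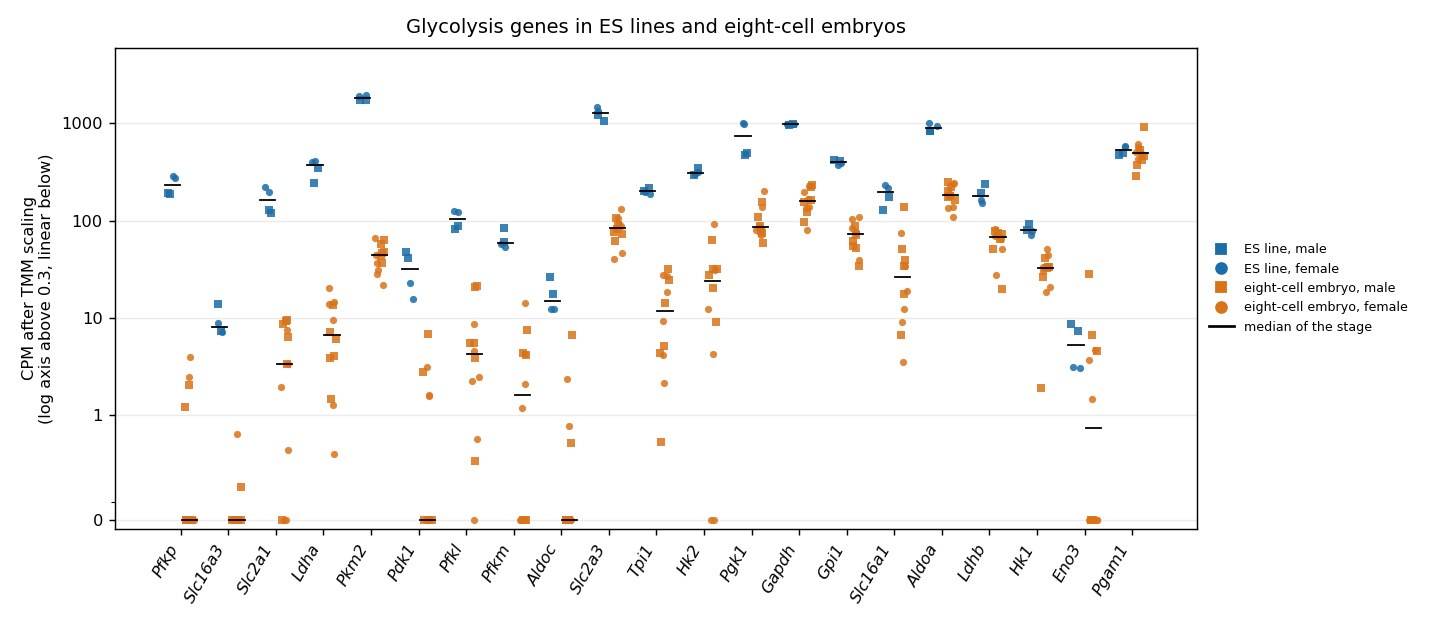
CPM of the 21 tested glycolysis genes in each ES line (blue) and embryo (orange), on a log axis above 0.3 CPM, with squares for males, circles for females and a line at the median of each stage. Apart from Pgam1, Eno3 and Slc16a1 every gene is higher in all 4 lines than in all 12 embryos.

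Glycolysis was the metabolic group with the most uniform difference. Of 21 genes tested, 19 were called higher in ES and none lower, at a median log2 of 3.83, and the count was the same whichever library was left out. It was 15 of 22 tested in the males alone, 15 of 21 in the females alone and 16 of 23 with DESeq2. Pkm2, pyruvate kinase, was at 1757, 1750, 1974 and 1927 CPM in the lines and at 21.8, 44.2 and 66.9 in the embryos (log2 5.43 ± 0.21, adjusted p = 2.7e-12). The glucose transporter Slc2a3 was at 1061, 1207, 1487 and 1336 CPM against 40.5, 84.8 and 130 (log2 3.94 ± 0.21, adjusted p = 1.6e-10). Gapdh was at 966, 986, 991 and 975 CPM against 80.9, 159 and 232 (log2 2.61 ± 0.21). The lines were thus above all embryos for the entry step and for late steps of the pathway. Ldha, which makes lactate, was at 348, 246, 412 and 403 CPM against 0.399, 6.62 and 20.3 (log2 5.49 ± 0.54), and Ldhb differed less (1.61 ± 0.27). Pgam1 was not called, at a mean of 534 CPM in ES and 509 in the embryos (log2 0.07 ± 0.21). X-linked Pgk1 was at 490 and 477 CPM in the male lines and 1016 and 976 in the female lines.

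In threonine, glycine and one-carbon metabolism 6 of 18 genes were higher in ES (33.3%) and 7 lower (38.9%), against 31.4% and 21.5% of all genes. Tdh, threonine dehydrogenase, was at 687, 633, 665 and 641 CPM in the lines and 10.7, 52.4 and 144 in the embryos (log2 3.52 ± 0.49, adjusted p = 1e-05). Enzymes of serine synthesis and glycine cleavage ran the other way. Phgdh was at 64.7, 77, 97.9 and 100 CPM in the lines and 978, 1081 and 1612 in the embryos (log2 -3.80 ± 0.19, adjusted p = 4.9e-11), and Gcsh at 130, 117, 183 and 179 against 1972, 2665 and 3134 (log2 -4.10 ± 0.18). Within the glycine cleavage system Gldc also fell (-3.35 ± 0.29) while Amt rose, at 140, 150, 191 and 195 CPM with no read in 10 embryos. None of these 5 genes overlapped between the stages, nor did 47.2% of all genes tested.

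Growth and division genes went both ways. In ribosome biogenesis 3 of 26 were higher in ES and 9 lower, with the nucleolar protein Npm1 at 2552, 2037, 2105 and 2063 CPM in the lines and 7559, 10986 and 15203 in the embryos (log2 -2.30 ± 0.16, adjusted p = 3e-09). Fbl, the methyltransferase of ribosomal RNA, was lower at log2 -1.46 ± 0.12, and at -0.74 with the length trend removed, where the call was lost. In DNA replication 6 of 27 were higher and 6 lower, close to the background. Its polymerase subunit Pola1 was at 253, 308, 477 and 452 CPM in ES against 6.99, 41.4 and 78.3, and the licensing factor Cdt1 and its inhibitor Gmnn were lower by -2.62 ± 0.21 and -1.90 ± 0.18.

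In mitosis 10 of 35 were higher (28.6%) and 12 lower (34.3%), against 31.4% and 21.5% of all genes. Among the lower ones was the mitotic cyclin Ccnb1, at 386, 433, 477 and 462 CPM in the lines and 839, 1657 and 2295 in the embryos (log2 -1.90 ± 0.22), and Ccne1 was lower by -2.05 ± 0.26. Ccnd1, the G1 cyclin, was at 166, 102, 109 and 86.9 CPM against 5.78, 16.2 and 35.6 (log2 2.66 ± 0.36, adjusted p = 7.6e-06). The inhibitor Cdkn1b (p27) was at 23, 33.7, 16.6 and 19.3 CPM with no read in any embryo.

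Targets and regulators of p53 were called higher in ES for 15 of 21 and lower for none, at a median log2 of 2.33. Trp53 itself was not called (-0.38 ± 0.22), nor was its classic target Cdkn1a (0.55 ± 0.43). Ccng1 was at 483, 405, 464 and 472 CPM in the lines and 15, 58.1 and 224 in the embryos (log2 3.09 ± 0.38, adjusted p = 2.7e-06), Trp53inp1 at 513, 570, 640 and 624 against 18.1, 37.9 and 155 (log2 3.60 ± 0.39), and Bax at 112, 122, 142 and 138 against 12.6, 33.3 and 58.4 (log2 1.91 ± 0.28). Male embryo 1 had the highest embryo value for Ccng1 and Trp53inp1, as for Mdm2 (198 CPM), Phlda3 (108) and Eda2r (79.9). It also had the lowest Gata6, 272 CPM. The count of higher p53 genes was 12 to 15 when single libraries were left out, 6 in the males alone and 9 in the females alone. Of 13 Bcl2 family genes tested, 4 were called higher in ES (30.8%) and 5 lower (38.5%), against 31.4% and 21.5% of all genes. The pro-apoptotic members Bak1 and Bbc3 were higher (8.51 ± 0.97 and 3.37 ± 1.14), as were Bax and Pmaip1. Bok, Bad and Bcl2l11 were lower (-3.50 ± 0.45, -3.23 ± 0.39 and -1.55 ± 0.57), as were Bcl2l1 and Bcl2l10. The call of Bcl2l1 was lost with DESeq2, in the females alone and with the length trend removed. The call of Bbc3 was lost in each sex alone.

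The largest differences outside the groups sensitive to the protocol were taken by size. The 10 genes highest over the embryo all had no read in any embryo. They were Spp1, Lefty2, Trh, Slc7a3, Cd81, Rian, Rcn1, Serpinh1, Vcan and Lifr, with means of 137 to 597 CPM in ES. Trh, the precursor of thyrotropin-releasing hormone, was at 353, 314, 443 and 311 CPM, and the arginine transporter Slc7a3, which is X-linked, at 245, 166, 419 and 414. The collagen chaperone Serpinh1 was at 86.9 and 95.3 CPM in the male lines and 232 and 256 in the female lines.

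The 10 genes lowest in ES relative to the embryo were Timd2, Alppl2, Pramel5, Pramel4, Gm13102, Trim43b, Slc34a2, Sp110, 2310002L13Rik and C130026I21Rik. Timd2, a ferritin receptor, was at 0.0772, 0, 0 and 0 CPM in the lines and at 1966, 2643 and 3641 CPM in the embryos. Alppl2, an alkaline phosphatase of the early embryo, was at 0.0772, 0.0785, 0 and 0 CPM against 1786, 2147 and 2717 (log2 -15.20 ± 0.32, adjusted p = 2.4e-15). Its relative Alpl, the phosphatase stained in ES colonies, was the opposite, at 259, 262, 251 and 258 CPM in the lines and 10.8, 28.8 and 74.1 in the embryos. Trim43b was at 0.386, 0.0785, 0.333 and 0.254 CPM against 975, 1996 and 2850. Slc34a2, a phosphate transporter, had no read in the lines and 33.4, 109 and 131 CPM in the embryos, at least 1666-fold higher there.

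**Figure D5:**
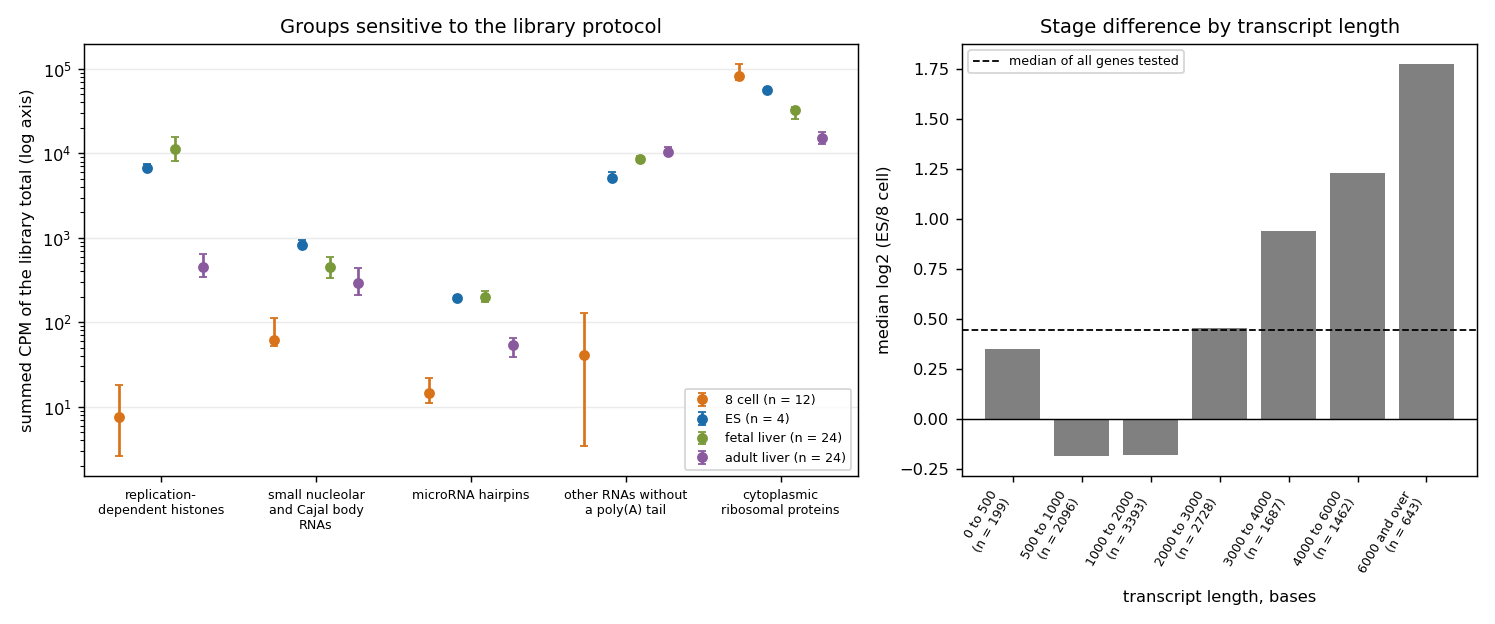
Left, summed CPM of the library total (log axis) of the groups sensitive to the protocol, as the median with the range, in 12 embryos, 4 ES lines, 24 fetal livers and 24 adult livers. Right, median log2 (ES/8 cell) of the tested genes by transcript length in bases, from -0.19 for 500 to 1000 bases to 1.78 for 6000 and over, with a dashed line at 0.44, the median of all genes.

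RNAs that oligo-dT priming misses were weighed apart. Replication-dependent histone transcripts end in a stem-loop without a poly(A) tail, and all 58 tested were higher in ES. They summed to a median of 6767 CPM of the library total in the ES lines and 7.48 in the embryos, against 11405 in fetal and 448 in adult liver, which share the kit of the ES lines. Hist1h4d was at 327, 283, 284 and 280 CPM in the lines and had no read in 9 embryos. The other RNAs without such a tail were higher for 8 of 8, among them Rmrp at 563, 619, 633 and 647 CPM with no read in any embryo and Malat1 at 2785, 3115, 2357 and 2470 against 0.85, 17.5 and 54.8. Small nucleolar and Cajal body RNAs were higher for 40 of 66, and for 24 after removal of the trend with transcript length, when 5 were lower. That trend was fitted with the RNAs without a poly(A) tail included, so it may take up part of their own difference. Cytoplasmic ribosomal proteins, with short polyadenylated messages, summed to 81298 CPM in the embryos and 55856 in ES, and 32 of 82 were lower in ES and 3 higher. With DESeq2's size factors these became 21 and 9, and with the length trend removed 11 and 6. The median log2 was 0.35 for transcripts under 500 bases and -0.19 at 500 to 1000, and then rose from -0.18 at 1000 to 2000 bases to 1.78 at 6000 and over, and the part of length in the results above was not tested beyond that setting.

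The miR-290 cluster, the main microRNA family of naive ES cells, is shown by the mature arms of its first hairpin, which has reads here. The capitals mark the seed, bases 2 to 8 (RefSeq, GRCm38.p6).
miR-290a-5p: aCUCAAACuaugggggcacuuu
miR-290a-3p: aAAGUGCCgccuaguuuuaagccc
The seed of the 3p arm is AAGUGCC and that of the 5p arm CUCAAAC. The hairpin Mir290 was at 5.25, 5.02, 4.83 and 5.34 CPM in the ES lines and had no read in any embryo, at least 117-fold higher against the floor. The cluster's hairpins Mir291a, Mir291b, Mir292, Mir293, Mir294 and Mir295 did not pass the filter on low counts. Reads on a hairpin come from the longer precursor and do not measure the mature microRNA. The host of another cluster, Mir17hg, was at 44.3, 49.5, 63.6 and 53.4 CPM in the lines and at most 3.89 in the embryos. Of 662 listed hairpins and hosts only 15 were tested, and 10 were higher in ES and 4 lower.

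Stage differences were similar in extent in the sexes, with 5092 genes called in females (40.8%) and 4877 in males (39.1%). The interaction of stage with sex was called for 2 genes (0.016%), and 220 had an unadjusted p under 0.05. DESeq2 called 7 higher and 5 lower for it. The X-linked cofactor Cited1 was at 1.08 and 0.706 CPM in the male lines and 8.59 and 9.67 in the female lines, and at 423 to 556 in male and 548 to 922 in female embryos. The folate receptor Folr1, which is autosomal, was at 21.7 and 19.3 CPM in the male and 80.1 and 77.4 in the female lines, and at 519 to 903 in the embryos. Both fell less in females, by 2.78 ± 0.32 (adjusted p = 0.0028) and 2.11 ± 0.32 (adjusted p = 0.036) on the log2 scale. Leaving out single libraries left 0 to 5 genes higher and 0 or 1 lower, and no gene was called without male ES line 2.

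On the X chromosome 428 tested genes, without Xist, had a median log2 (ES/8 cell) of 1.32 in females and 0.98 in males, and 11968 autosomal genes 0.40 and 0.33. The difference between the sexes was above 0 for 67.8% of the X-linked and 53.3% of the autosomal genes. At the X inactivation centre Xist was at 0 and 0.0785 CPM in the male lines and 1.67 and 1.95 in the female lines, while the highest embryo was at 185, but the sex of the embryos had been assigned from Xist. Its antisense partner Tsix was at 4.09, 6.12, 12.2 and 11 CPM in the lines and had no read in any embryo, with the limit on strand given above. Rlim, the X-linked ligase that activates Xist, was at 354 and 293 CPM in the male and 532 and 470 in the female lines and at 71.2, 139 and 205 in the embryos (log2 1.58 ± 0.23), and its call was lost when the trend with length was removed (0.22).

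Of 14 fibroblast and feeder markers 3 were tested, and Fn1 and Col5a1 were called higher in ES. Col5a1 was at 4.94, 5.02, 7.75 and 8.23 CPM in the lines and had no read in any embryo. The 14 fibroblast and feeder markers summed to 496 to 737 CPM in the ES lines and 0 to 29 in the embryos, nearly all of it Fn1 (621, 726, 483 and 511 CPM), a matrix gene that other cells also express. The defining collagens Col1a1 and Col1a2 were at no more than 1.61 and 0.0785 CPM in the lines and had no read in any embryo. The 11 cumulus and oviduct markers summed to 6.36 to 9.17 CPM in the lines and 0 to 9.92 in the embryos. Blood markers, 9 in all, summed to 10.7 to 27.9 CPM in the lines, mostly Cd68, and 0 to 10.8 in the embryos, and the globin Hbb-b1 had no read in any of the 16 libraries.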

How the data were processed

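The authors deposited raw counts made with HTSeq for 23338 genes of a UCSC annotation in every library, after alignment to mm10 with TopHat2 2.0.4 and Bowtie2 2.1.0, SAMtools 0.1.18 and removal of duplicate reads with Picard. The counts carried no normalization. HTSeq's strand setting was not given in the sources used here. Removal of duplicates lowers the counts of abundant and short transcripts most, and intervals and floors (3 reads) cover counting error only, since the libraries held no molecular identifiers. The 5 summary lines of each file were dropped. Reads assigned to no gene made up 26.7 to 31.3% of the counted reads in ES and 8.63 to 14.4% in the embryos.

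Groups followed the stage and sex labels. The test between stages was run in edgeR 4.0.16 under R 4.3.3 (TMM, filterByExpr on stage, sex as a covariate, robust quasi-likelihood fit, two-sided F test, Benjamini-Hochberg adjustment over all genes tested). The standard error was taken as the absolute log2 over the square root of F. Because 1 dispersion was fitted to both stages, the fitted biological coefficient of variation of 0.817 stands between 0.138 within ES and 0.954 within embryos. Tests within a sex and of the interaction used a model with a mean for each stage and sex. Genes detected were compared with an exact permutation test over all 1820 splits. The scripts were tested on simulated counts. DESeq2 1.42.0, voom in limma 3.58.1 and other settings served as alternatives. Tables used Python 3.11.15 with pandas 2.3.3. Transcript lengths (98.0% of genes) came from GENCODE, and sequences from RefSeq.

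The members, 35 gene lists and tests were chosen with earlier results of these data known. Genes named were the 3 markers, up to 3 called members per list and direction with the smallest adjusted p, the 10 largest called differences per direction (at least 10 CPM and 10 reads in every library of the higher stage, outside the protocol-sensitive groups) and the genes of the interaction. Other list members are given by their values and were chosen after these were seen. The values of 1 list member are not reported here. The embryos shared litters, but the litter of each was not given, nor the passage of each line, so no batch could be fitted.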

Additional observations from a re-analysis of the deposited data

Results flagged for a closer look

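Among 169 named genes, 11 had 1 ES line set apart from the other 3, as measured by its gap to the nearest line over the range of the 4, beyond Dixon's 95% critical value for 4 samples. Chance sets apart about 1 group in 20. Male line 1 was the outlying line for 7 of the 11, male line 2 for 3 and female line 3 for 1. Dppa3 was at 112 CPM in male line 1 and at 37.2 to 42.1 in the others (gap over range 0.935), and Sox15 at 17.1 against 9.92 to 10.3 (0.942). Tbx3 was lowest in the same line, at 66.6 CPM against 110 to 115 (0.891). Npm1 (0.868), Hist1h4d (0.914) and Mir682 (0.873) were highest there. In male line 2, Lama1 was at 136 CPM against 57.4 to 63.2 (0.926) and H2afy2 at 19.1 against 4.07 to 5.79 (0.885). The remaining 3, Timd2, Pramel5 and C130026I21Rik, had reads in only 1 line, which gives a ratio of 1 by construction.

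The change between the stages differed between the sexes for Cited1, by 2.78 on the log2 scale, and for Folr1, by 2.11, both tested by the interaction of stage with sex.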

How the results depend on the processing

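The count of genes higher in ES moved most without the expression filter, to 6250 (2615 lower, of 18255 tested), and with voom, to 5715 (2750 lower). DESeq2's size factors gave 4607 higher and 2191 lower, an adjusted p under 0.1 with an absolute log2 above 0.5 gave 4693 and 3419, and the males alone gave 2664 and 2074. Leaving out single libraries gave 3591 to 4035 higher and 2465 to 2735 lower. The interaction was called for 7 genes higher and 5 lower with DESeq2, and for 0 to 5 and 0 to 1 without single libraries. Females gave 2112 to 2996 higher and 1586 to 2282 lower without single libraries, males 1889 to 2794 and 1594 to 2257. With a replicate block on the shared numbers 1 to 4 the stage counts were 3718 and 2029, but same-numbered libraries did not deviate together (correlations of -0.02 to 0.049, and only numbers 2 and 3 correlated best with their own), so the numbers do not pair the samples.

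Of the 169 named genes, 140 kept call and direction under each of the 14 alternatives in which they were tested and without any single library. Between 153 and 169 were tested in each. Reversed values were -0.09 for B230206F22Rik in females only and -0.26 for Polr1a with the length trend removed. Pou5f1 and B230206F22Rik lost their call when single libraries were left out. The median log2 changed sign under at least 1 setting for several lists. They included primitive endoderm, trophectoderm, histone variants, Polycomb, DNA replication, the X inactivation centre and the Bcl2 family. Threonine, glycine and one-carbon metabolism was also among them, at 0.0034 in the main test and -0.03 in the males alone. Counts for lists and counts within each sex without single libraries were added after seeing the data. Low embryo counts and the shared protocol of each stage limit all comparisons.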
